A study of Macaca mulatta with 2 samples.

Results

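Leukocyte surface receptors and adhesion molecules were described here through 9 genes, FCGR1A, TNFSF12, ITGAE, EVI2A, FCRL5, PECAM1, ITGB3, CD302 and SIRPA. They were found by matching the Ensembl macaque gene identifiers of the deposited tables to these symbols. All 9 were present, with 23 transcripts, among the 7904 genes and 9267 transcripts listed. The material was a single RNA preparation of rhesus macaque (Macaca mulatta) peripheral blood mononuclear cells (PBMC), which are mainly lymphocytes and monocytes, with no treatment, age or sex given. Its 2 libraries carry the titles LongInsert and Regular, so that the comparison is between ways of making and reading a library and not between biological states. Per the labels, a MiSeq run read 300 nt from each end of gel-sized fragments cut from cDNA by transposase (Nextera), and another instrument read 75 nt from a standard Illumina library. The labels conflict on which title goes with which instrument and read length and do not settle it. Directions refer to the titles alone. With 1 library of each kind there was no replicate, no error and no test for any difference.

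Most of these genes encode proteins by which white blood cells sense antibodies, recognise each other and attach to surfaces. Integrins are pairs of an alpha and a beta chain that bind matrix or partner cells, Fc receptors bind the constant part of antibodies, and several receptors of this kind carry tyrosine motifs in their tails that pass activating or inhibitory signals on binding. Monocytes, B cells, T cells and platelets each carry a different selection of them. Many are made in more than 1 splice form, which can change the tail or release a soluble protein.

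Abundance is given in TPM, a unit that divides reads by transcript length and sets the sum of a complete library to 1000000, summed over the listed transcripts of a gene. TPM allows levels of different genes to be set side by side, but keeps no read number, so the depth behind each value is unknown. The listed transcripts held 13.0% of the library total in LongInsert and 15.3% in Regular, and the rest was not analysed here. The 9 genes summed to 675 TPM in the LongInsert and 484 TPM in the Regular library, which was 0.518% and 0.317% of the listed TPM. Each of the 9 exceeded 1 TPM in both libraries. At 10 TPM or more there were 6 of them in LongInsert and 4 in Regular. Among all 7904 listed genes, 1322 reached 1 TPM in LongInsert and 1015 in Regular, so more genes passed that level in LongInsert in general. The same count at 10 TPM was not taken over all genes, so the 6 and 4 cannot be compared with other genes and nothing is read from them. For the level of a gene in bulk RNA, fewer cells of a type and less RNA per cell cannot be told apart. This limit concerns levels and not the difference between the libraries, which were made from the same RNA preparation. The defining markers of PBMC could not be checked, since none of the genes fixed as markers of T, B, plasma, NK, monocyte or dendritic cells, or of neutrophils and endothelium, was found by symbol among the listed genes.

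PECAM1, EVI2A and TNFSF12 were the most abundant of the 9 genes in both libraries, in a different order. Together they made up 88.1% of the 9 genes' TPM in LongInsert and 93.1% in Regular. FCRL5 came next in both libraries and ITGB3 last. Of the 36 pairs of genes, 29 had the same order in both libraries and 7 changed places. The 7 pairs all involved TNFSF12, CD302 or ITGAE. No spread was available to say which neighbours in either order differ.

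**Figure D1:**
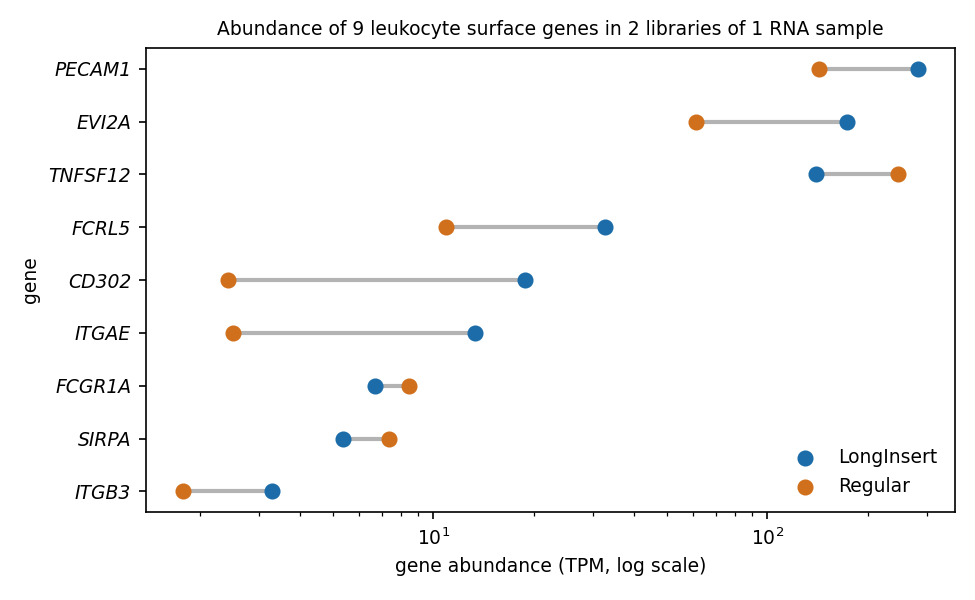
Abundance (TPM, log axis) of the 9 genes in the LongInsert (blue) and Regular (orange) libraries, each point being 1 library and the grey line joining both values of a gene. The widest gap is that of CD302 (18.9 and 2.42 TPM), and the order of the libraries is turned for TNFSF12, FCGR1A and SIRPA.

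Differences were expressed as log2((LongInsert + 1)/(Regular + 1)), where the added 1 TPM shrinks ratios at low abundance. Genes were called higher or lower by a rule of size alone, 2-fold or more on this scale, among genes averaging at least 1 TPM. CD302, ITGAE, FCRL5 and EVI2A were at least 2-fold higher in LongInsert, none of the 9 was at least 2-fold lower, and PECAM1, ITGB3, FCGR1A, SIRPA and TNFSF12 were within 2-fold. Over all 1310 genes at that minimum, 50.8% were higher, 19.8% were lower and 29.3% were within 2-fold. Of the 365 with a symbol, 53.7% were higher, 9.59% lower and 36.7% within 2-fold. The share of the 9 genes that was higher, 44.4%, was thus near the background. Their median log2 ratio was 0.98, against 1.04 for all genes and 1.12 for genes with a symbol. Centring the ratios on the median of genes averaging at least 10 TPM, which subtracts 0.59, left 2 of the 9 higher (CD302 and ITGAE) and 1 lower (TNFSF12). After that step 38.5% of all genes were higher and 25.5% lower.

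**Figure D2:**
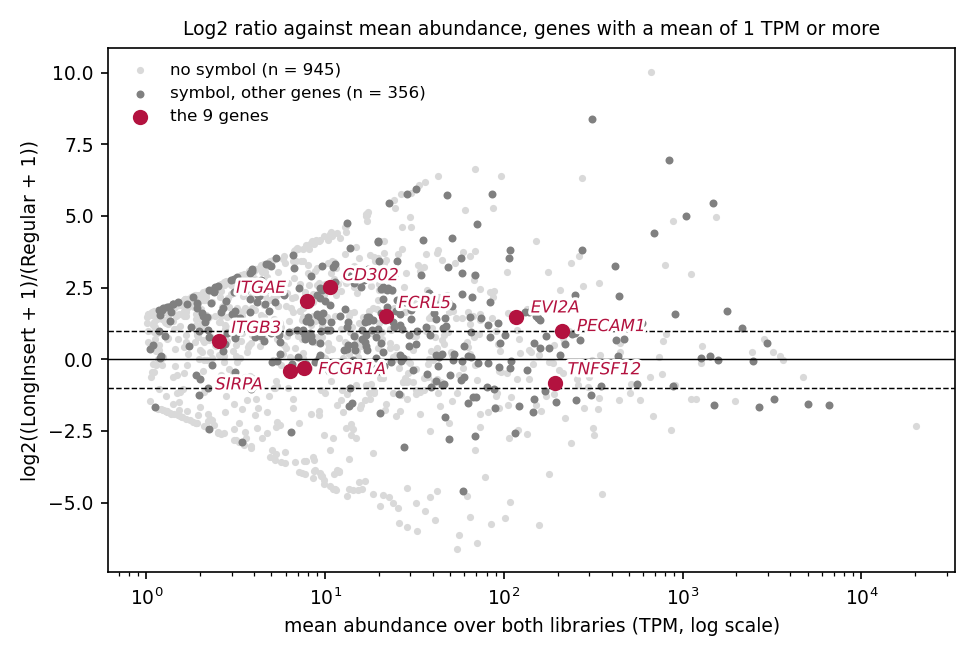
Log2 ratio of LongInsert over Regular (pseudocount 1 TPM) against the mean abundance of both libraries (TPM, log axis), for 1310 genes, 1 point per gene, with the 9 genes in red, other genes with a symbol in dark grey and genes without a symbol in light grey. Dashed lines mark 2-fold, and the 9 genes lie from -0.82 (TNFSF12) to 2.54 (CD302), inside the cloud of other genes.

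The antibody-binding branch was represented by a receptor for IgG and an Fc receptor-like protein. FCGR1A (ENSMMUG00000004362) encodes CD64, the high-affinity IgG receptor of monocytes and macrophages. It had 6.69 TPM in the LongInsert and 8.47 TPM in the Regular library, a log2 ratio of -0.30. FCRL5 (ENSMMUG00000008974) encodes a receptor of B cells and plasma cells. It had 32.7 TPM in the LongInsert and 10.9 TPM in the Regular library, a log2 ratio of 1.50. FCRL5 was therefore 4.89 times as abundant as FCGR1A in LongInsert and 1.29 times in Regular. Among all 7904 listed genes of each library, FCGR1A ranked 781st in LongInsert and 536th in Regular, while FCRL5 ranked 359th and 480th. Ranks are not on the same footing in both, as 1322 genes reached 1 TPM in LongInsert and 1015 in Regular. ITGB3, for example, had more TPM in LongInsert but ranked 984th there and 868th in Regular. FCGR1A has near-identical copies in human, and reads shared with any such copy in macaque could be placed differently, so its level is uncertain.

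The integrin branch held an alpha and a beta chain that do not pair with each other. ITGAE (ENSMMUG00000008556) encodes CD103, the alpha E chain, which with the beta 7 chain binds E-cadherin and marks T cells of epithelia. Its level was 13.3 TPM in the LongInsert and 2.50 TPM in the Regular library, a log2 ratio of 2.03. ITGB3 (ENSMMUG00000003289) encodes CD61, the beta 3 chain of the platelet fibrinogen receptor and of the vitronectin receptor. It was the lowest of the 9 genes, with 3.29 TPM in the LongInsert and 1.77 TPM in the Regular library, a log2 ratio of 0.63 that fell to 0.04 after centring. ITGAE stood 4.03 times above ITGB3 in LongInsert and 1.41 times above it in Regular. ITGB3 was the only platelet marker of 11 found by symbol among the listed genes, so platelet RNA could not be judged from it. The 1 listed red cell marker, HBA1, had 0.0093 TPM in the LongInsert and 0.0035 TPM in the Regular library.

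Adhesion and self-recognition receptors included the most abundant gene of the group in LongInsert. PECAM1 (ENSMMUG00000011809) encodes CD31, an adhesion molecule of the immunoglobulin family on leukocytes, platelets and endothelium that binds itself on the neighbouring cell. Its 282 TPM in the LongInsert and 142 TPM in the Regular library gave a log2 ratio of 0.98, just inside the 2-fold rule, which it passed at 1.21 once both libraries were scaled to the same listed total. SIRPA (ENSMMUG00000018474) encodes the myeloid receptor for CD47, an inhibitory signal against phagocytosis. It had 5.35 TPM in the LongInsert and 7.38 TPM in the Regular library, a log2 ratio of -0.40. SIRPA belongs to a family of closely similar genes, which makes its level uncertain in the same way.

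CD302 (ENSMMUG00000020721), a C-type lectin receptor of monocytes, macrophages and dendritic cells, differed most among the 9 genes. Its single listed transcript had 18.9 TPM in the LongInsert and 2.42 TPM in the Regular library, a log2 ratio of 2.54. It ranked 497th of the listed genes in LongInsert and 804th in Regular. Set beside SIRPA, CD302 was 3.52 times as abundant in LongInsert, and in Regular SIRPA was 3.05 times as abundant as CD302. At 4-fold or more, only CD302 and ITGAE of the 9 genes were higher, as were 29.1% of all genes.

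EVI2A and TNFSF12 were abundant in both libraries and had ratios of opposite sign. EVI2A (ENSMMUG00000008604), a transmembrane protein gene that lies in an intron of the neurofibromin gene NF1, had 173 TPM in the LongInsert and 61.2 TPM in the Regular library, a log2 ratio of 1.49. TNFSF12 (ENSMMUG00000006327) encodes TWEAK, a cytokine of the tumour necrosis factor superfamily that is made as a membrane protein and can be shed. Like FCGR1A and SIRPA, it had a higher value in Regular. Its 140 TPM in the LongInsert and 247 TPM in the Regular library gave a log2 ratio of -0.82. The ratio passed 2-fold after centring, at -1.41. It also did so after scaling to an equal listed total without the 10 most abundant genes, at -1.12. EVI2A was 1.24 times as abundant as TNFSF12 in LongInsert, whereas TNFSF12 was 4.03 times as abundant as EVI2A in Regular.

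Neighbouring genes bear on several of these sums, since whether strand was used in the quantification is not given in the sources used here. In the RefSeq annotation of the T2T-MMU8v2.0 assembly, which served for gene names and order only, EVI2A overlaps NF1 and lies next to EVI2B. ITGAE overlaps P2RX5, and FCGR1A overlaps H2BC18. TNFSF12 lies between POLR2A and TNFSF13, and CD302 lies next to LY75, and readthrough transcripts of both TNFSF12 with TNFSF13 and LY75 with CD302 are known in human. The part of shared reads in these values was not tested.

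Set against genes with a symbol of like abundance, the 9 genes split as follows. At a mean of 1 to 10 TPM, 1 of 4 (ITGAE) was higher, while 60.4% of 144 genes with a symbol were. At 10 to 100 TPM, where 55.3% of 159 were higher, FCRL5 was higher. CD302, with a mean of 10.6 TPM, reached this class only through its value in LongInsert, so its higher call there counts for nothing. At 100 to 1000 TPM, EVI2A alone of 3 was higher, against 35.4% of 48. EVI2A, with a mean of 117 TPM, reached this class only through its value in LongInsert, so its higher call counts for nothing either. These groups are too small to set the 9 genes apart from the others.

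Isoforms were compared in the 6 genes with more than 1 listed transcript, by the share of the gene's TPM that each transcript took. A single transcript held nearly all of EVI2A, ITGAE and SIRPA in both libraries, between 96.2 and 99.9% of the gene. In FCGR1A, ENSMMUT00000046154 took 86.7% in LongInsert and 91.8% in Regular, and the other 3 transcripts each stayed under 1 TPM. The higher values of ITGAE and EVI2A in LongInsert were therefore those of 1 transcript each, ENSMMUT00000011963 with 13.3 and 2.44 TPM and ENSMMUT00000012030 with 173 and 61.0 TPM. CD302, FCRL5 and ITGB3 had 1 listed transcript.

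PECAM1 was the only member whose leading transcript differed between the libraries. Of 194 genes averaging at least 5 TPM and with 2 or more listed transcripts, 27.8% had different leaders, and of the 44 with 4 or more transcripts, 40.9% did. ENSMMUT00000041153 had 220 TPM in the LongInsert and 41.1 TPM in the Regular library, a log2 ratio of 2.39, and its share of the gene was 78.0% and 28.8%. ENSMMUT00000041152, the leader in Regular, had 46.0 TPM in the LongInsert and 71.1 TPM in the Regular library, a share of 16.3% and 49.9%. ENSMMUT00000016543 had 15.7 and 29.5 TPM, and ENSMMUT00000041151 stayed under 1 TPM in both. The higher gene total in LongInsert thus came from 1 transcript. Without it, the other 3 transcripts summed to 62.2 TPM in the LongInsert and 101 TPM in the Regular library, a log2 ratio of -0.70 and so of the opposite sign to the gene. The transcript left out was picked as the leader in LongInsert, which by construction lowers the ratio of the rest.

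TNFSF12 kept its leading transcript but its 6 transcripts moved in both directions. The leader, ENSMMUT00000008875, had 60.5 TPM in the LongInsert and 183 TPM in the Regular library, and took 43.3% and 74.1% of the gene. ENSMMUT00000008864 was the second transcript in LongInsert at 30.3 TPM and the lowest in Regular at 1.32 TPM, a log2 ratio of 3.75. ENSMMUT00000008872 had 12.3 and 1.65 TPM, and ENSMMUT00000008868, within 2-fold, had 28.7 and 20.0 TPM. These 3 transcripts were grouped because each was higher in LongInsert, so the direction of their sum was set by the grouping. Together they held 51.1% of the gene in LongInsert and 9.31% in Regular. Besides the leader, ENSMMUT00000008874 (3.21 and 27.0 TPM) and ENSMMUT00000008863 (4.61 and 14.0 TPM) were at least 2-fold lower in LongInsert. The ratio of the gene total, within 2-fold, was thus the balance of 3 transcripts with 71.3 TPM in the LongInsert and 23.0 TPM in the Regular library, and 3 with 68.3 and 224 TPM.

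**Figure D3:**
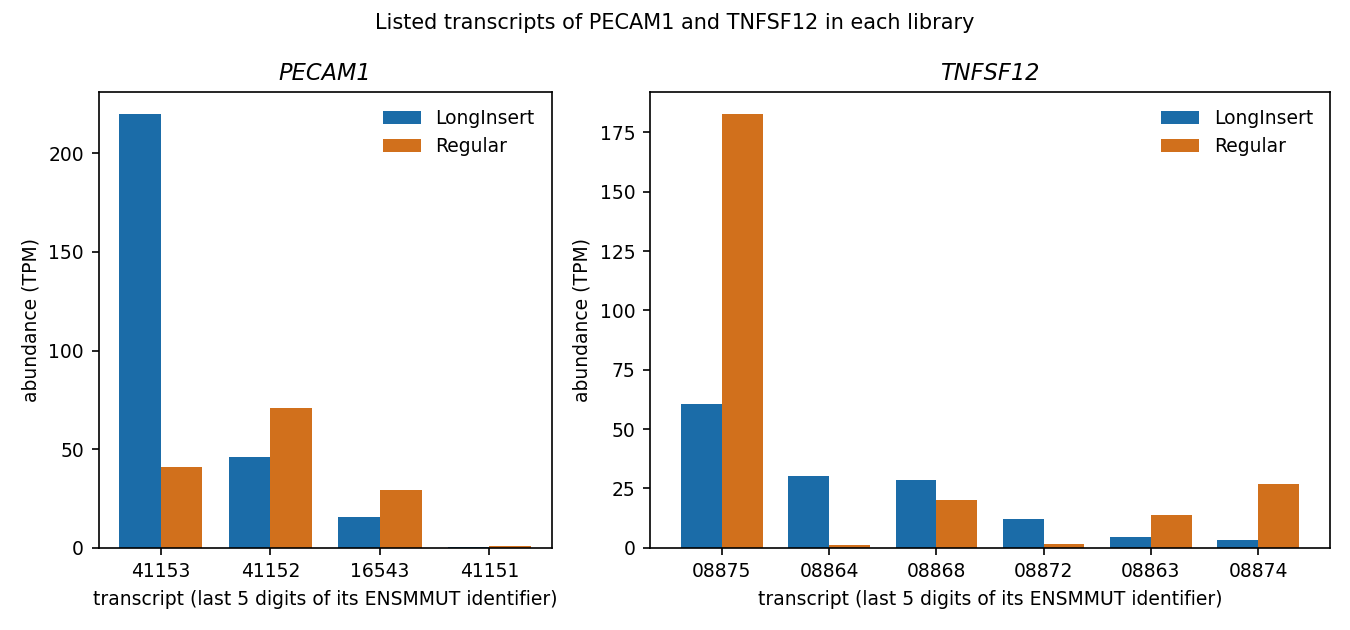
Abundance (TPM) of each listed transcript of PECAM1 (left) and TNFSF12 (right) in the LongInsert (blue) and Regular (orange) libraries, each bar being 1 library. PECAM1 ENSMMUT00000041153 stands at 220 TPM in LongInsert and 41.1 in Regular while the other PECAM1 transcripts are higher in Regular, and TNFSF12 ENSMMUT00000008875 is at 60.5 TPM in the LongInsert and 183 TPM in the Regular library while the next 3 transcripts go the other way.

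The share of a gene's TPM that moved between transcripts, taken over all its transcripts so that no leader has to be chosen, was 49.1 percentage points in PECAM1 and 41.8 points in TNFSF12. It was 5.73 points in FCGR1A, 3.28 in SIRPA, 2.52 in ITGAE and 0.28 in EVI2A. The median was 14.6 points over the 194 genes and 25.4 points over the 44 genes with 4 or more transcripts. Among those 44, 84.1% moved less than PECAM1, 72.7% less than TNFSF12 and 13.6% less than FCGR1A. The shift thus concerned 2 of the 3 members with 4 or more transcripts, both with means above 100 TPM, and the third, FCGR1A, had a mean of 7.58 TPM. By single transcript, 16 of the 23 averaged at least 1 TPM. Of these, 7 were at least 2-fold higher in LongInsert and 3, all of TNFSF12, at least 2-fold lower, against 51.8% and 20.5% of 1500 transcripts of all genes. The other 6 were within 2-fold, as were 27.7% of the 1500.

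Related genes were looked for in 8 lists of Fc receptors, integrins, adhesion molecules, inhibitory receptors, C-type lectins, the tumour necrosis factor superfamily, the EVI2 locus and signalling partners. Of their 269 symbols, 245 stood in the table of gene names, and 13 were found among the listed genes, 4 of them outside the 9. PXN, which encodes the integrin adaptor paxillin, was the only one of the 4 that averaged at least 1 TPM. It had 131 TPM in the LongInsert and 53.5 TPM in the Regular library, a log2 ratio of 1.27 that was within 2-fold after centring. Its leading transcript, ENSMMUT00000045507, was the same in both, with 96.6% and 66.7% of the gene. The integrin chain gene ITGB4 (0.0048 and 0.936 TPM), the B cell receptor gene TNFRSF13B (0.218 and 0.0022 TPM) and LILRA6 (0.0042 and 0.0129 TPM) were under 1 TPM in both libraries. The partner chains of ITGAE and ITGB3, and the ligand CD47 of SIRPA, were not among the listed genes with a symbol and were not analysed here.

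**Figure D4:**
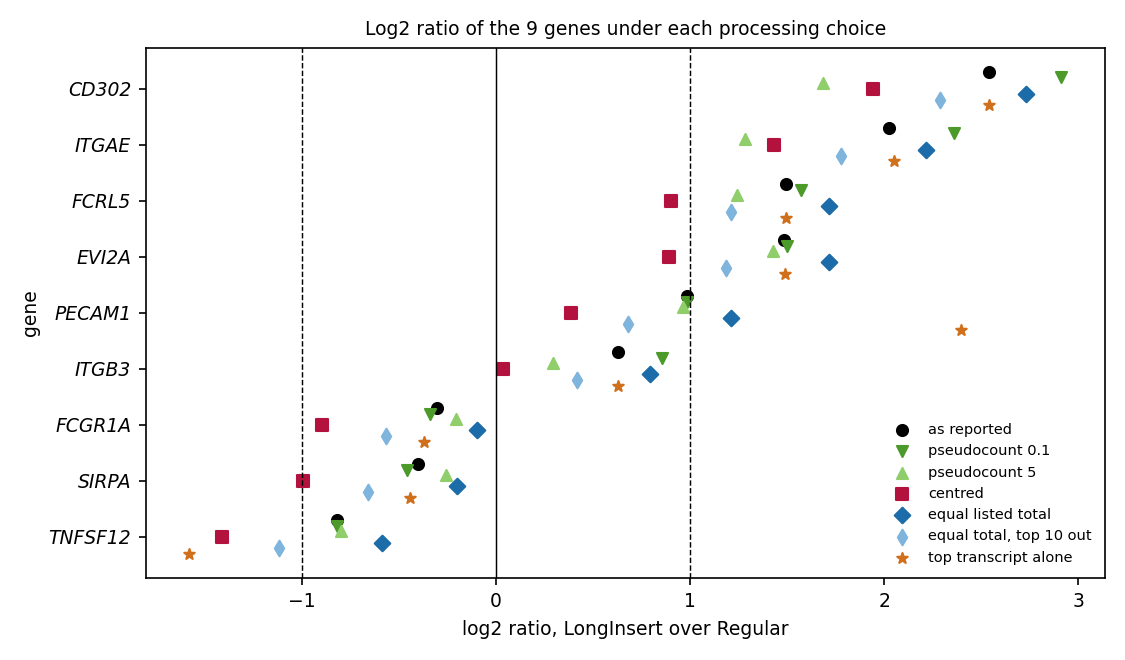
Log2 ratio of LongInsert over Regular for the 9 genes under the reported setting and 6 processing choices, 1 symbol per choice, with dashed lines at 2-fold. No gene changes sign, CD302 and ITGAE stay past 2-fold in each setting drawn, and PECAM1 ranges from 0.39 after centring to 2.39 for its most abundant transcript alone.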

How the data were processed

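Each library has a table from the authors that lists TPM by Ensembl macaque transcript, as the deposited files head it. CASAVA 1.8.2, STAR and Trimmomatic are tools given by the submitters' processing notes, in no stated role, and the series title names Isolator, an isoform quantifier. Genome build, annotation release and quantification settings were not given in the sources used here. A naming table keyed on Ensembl identifiers gave symbols for 724 of 7904 genes. Transcript values were summed per gene and compared with a pseudocount of 1 TPM and a 2-fold rule of size (Python 3.11.15, pandas 2.3.3). The arithmetic was checked on simulated data without noise, in which only abundant genes were given known changes. That check does not bear on spread between libraries or on low values. An isoform quantifier divides reads among overlapping transcripts by a model, so shares can depend on read length and on the transcripts it knew of. The 9 genes and the lists were chosen with earlier results of these data known. Named genes were the 9 members and, from each list, up to 4 of the highest mean TPM at 1 TPM or more. List genes under 1 TPM were named after their values were seen. No likeness between genes was computed from 2 libraries. Protein features planned for the members were not computed, since no protein sequences were at hand. Alternatives were other pseudocounts, minima, scalings, a 4-fold rule and the leading transcript alone.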

Additional observations from a re-analysis of the deposited data

How the results depend on the processing

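None of the 9 genes changed the sign of its log2 ratio in the 54 values recomputed with other pseudocounts, scalings or the most abundant transcript alone, and 47 of the 54 kept their side of the 2-fold rule. Centring took EVI2A to 0.89, FCRL5 to 0.90 and TNFSF12 to -1.41, leaving 2 genes higher and 1 lower. The 9 genes and the related lists together held 10 genes at the minimum of 1 TPM. Of these, 5 were higher and none lower as reported, against 50.8% and 19.8% of 1310 genes. After centring 2 were higher and 1 lower, against 38.5% and 25.5%. The counts do not set these genes apart. An equal listed total took PECAM1, and with it the median of the 9 genes, to 1.21, while the median of all genes went to 1.25. Without the 10 most abundant genes in that total TNFSF12 stood at -1.12, as the 1 lower gene of the 9, where 22.7% of 1302 genes were lower and 46.3% higher. The most abundant transcript alone gave 2.39 for PECAM1 and -1.58 for TNFSF12. A minimum mean of 10 TPM kept 5 of the 9 genes, with a median of 1.49, against 0.59 for the 625 genes of all kinds at that minimum. CD302 passed it only through LongInsert. FCRL5 (1.50), EVI2A (1.49) and PECAM1 (0.98) also stood above 0.59, and TNFSF12 (-0.82) stood below. A median of so few genes, without replicates, does not set the 9 genes apart. A 4-fold rule left 2 higher. The usage of the PECAM1 leader fell by 49.1 points from LongInsert to Regular, and taking the leader from Regular instead turned this to a rise of 33.6 points, as another transcript is then followed. The measure of moved share was chosen after seeing the data. No paired analysis was possible because each group holds 1 library. Depth is unknown, so low values such as those of ITGB3 and of CD302 in Regular cannot be told from too few reads.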
